A study of Mus musculus with 10 samples.

Results

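Idi1, Acat2, Acot1, Acot7 and Acaa2, enzymes of isoprenoid and acyl-CoA metabolism, were followed in ureteric buds of the mouse kept in culture in the presence or absence of GDNF. These 5 genes, of 634 named in the authors' comparison tables, were chosen from values of the same contrast, since the tables list probe sets that differed between plus and minus GDNF arrays. Every difference between the groups below is therefore a description, with no test. The genes have 9 probe sets in those tables, 3 on the U74Av2 array and 6 on the 430A array, and all 9 passed the filter on low values used here.

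The buds came from E11.5 embryos of the Swiss Webster strain and were set in Matrigel, an extract of basement membrane. The plus GDNF group had 100 ng/mL GDNF, the ligand of the receptor tyrosine kinase Ret, for 16 h, and the minus GDNF group was cultured for 16 h without it. U74Av2 and 430A, both Affymetrix arrays of short oligonucleotides, had 3 plus GDNF and 2 minus GDNF arrays each, 10 arrays in all. Each array carried RNA pooled from 5 or 6 batches of 30 to 40 buds, so values describe pools and not single buds. How many arrays there were sets the precision of each value. Per the series text, different pools were used for each chip. Same-numbered arrays of the U74Av2 and 430A types nonetheless had like RNA quality ratios. Whether they shared RNA was not settled here, so likeness between the types is not taken as independent support.

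Cells build sterols and isoprenoids from acetyl-CoA. In the cytosol, the thiolase Acat2 joins acetyl-CoA units into acetoacetyl-CoA, which feeds the mevalonate pathway. Idi1 then turns isopentenyl diphosphate into dimethylallyl diphosphate, so that chains can be built for cholesterol, dolichol, ubiquinone and the lipid anchors of prenylated proteins. The thioesterases Acot1 and Acot7, both cytosolic, release free fatty acids from acyl-CoA. Acaa2, a thiolase of the mitochondrion, cleaves acetyl-CoA from fatty acyl chains in the last step of beta-oxidation.

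Idi1, Acat2, Acot1 and Acot7 were higher with GDNF on each array type where they were named, and Acaa2 was lower. Probe sets were named only through the authors' tables of changed probe sets. Any other probe set of these genes, on either array type, was therefore not seen here, and like directions are no separate support. The ratio of group means ran from 2.06 for an Idi1 probe set to 1.39 for Acot7 among the 7 higher probe sets, and was 0.678 and 0.653 for the 2 Acaa2 probe sets. On U74Av2 all 3 probe sets had every plus GDNF array above both minus GDNF arrays, as did 17.5% of the 10588 probe sets tested. On 430A this held for 4 probe sets, against 15.3% of 19521, and the 2 Acaa2 probe sets had every plus GDNF array below, against 15.7%. The choice of genes fixes these counts, and nothing is read from them. In such pools, fewer cells of a type and less RNA per cell cannot be told apart. The median log2 change of the members was 0.89 on U74Av2 and 0.53 on 430A, beside -0.04 and -0.07 for all probe sets tested.

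**Figure D1:**
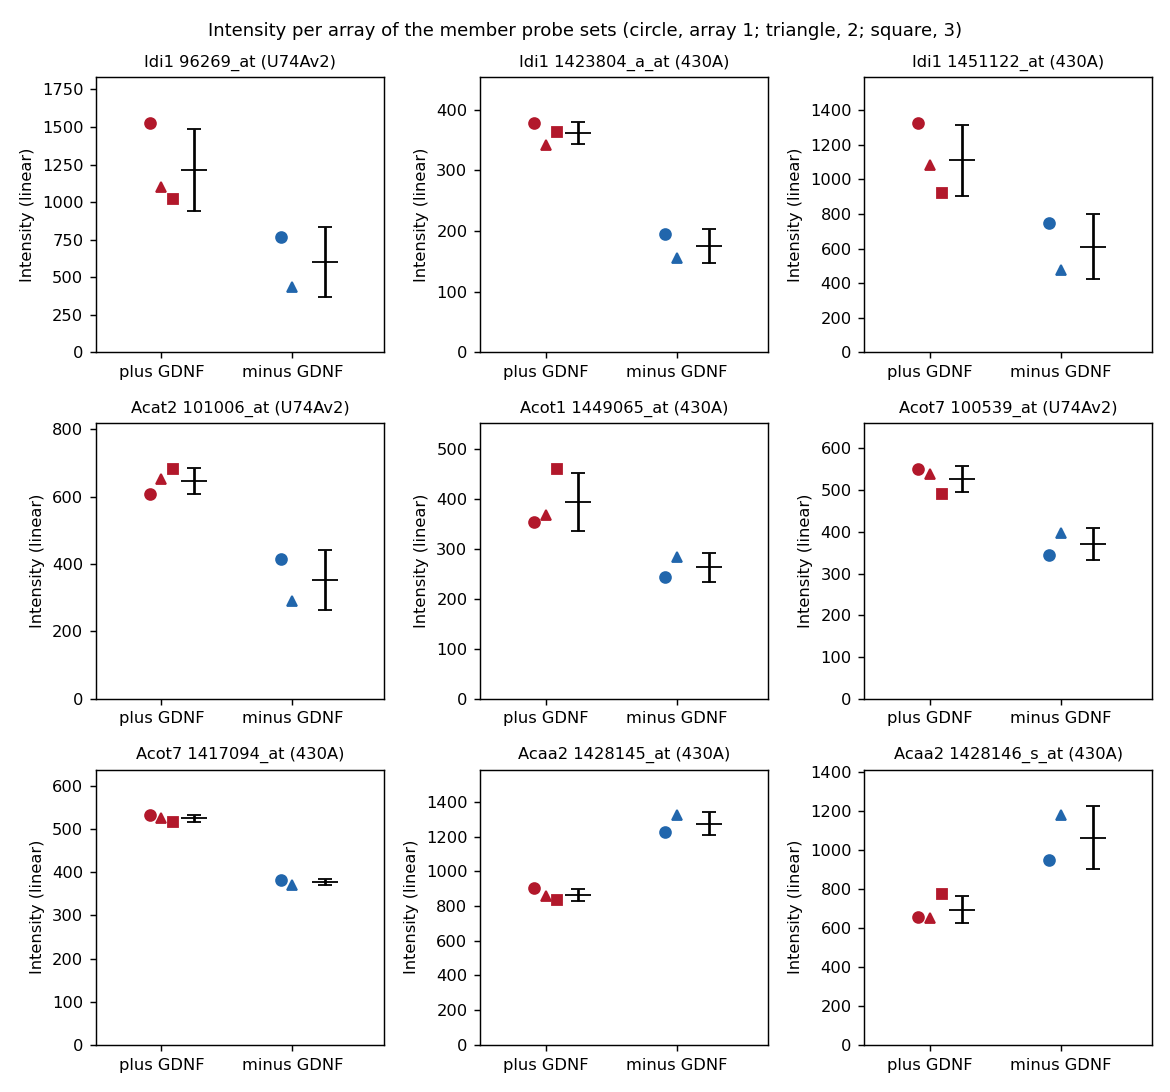
Deposited intensity (linear axis from 0) of the 9 probe sets on each array, plus GDNF on the left of each panel and minus GDNF on the right. Bars show the group mean and SD (n = 3 and n = 2). In the Idi1, Acat2, Acot1 and Acot7 panels all plus GDNF points lie above the minus GDNF points, and in the 2 Acaa2 panels all lie below.

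At a Benjamini-Hochberg adjusted p under 0.05, limma called 0 of the 3 member probe sets on U74Av2, where it called 0.00944% of all probe sets (1 of 10588). On 430A it called 0 of 6, with 0% of all 19521 called. At an unadjusted p under 0.05 limma's count was 3 of 3 on U74Av2 and 6 of 6 on 430A, beside 8.79% and 13.3% of all probe sets tested. Because the genes were picked from this contrast, the second count is no support for a difference. In the authors' deposited table for U74Av2, 2.2% of the probe sets on the array were listed as higher with GDNF. The authors' deposited table for 430A lists 2.4% as higher and 0.667% as lower.

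The plot of changes over the whole of each array shows where the members lie. The higher Idi1 value on 430A was equalled or passed by 64 of 19521 probe sets, and Idi1 on U74Av2 by 99 of 10588. Acat2 was equalled or passed by 150 probe sets on U74Av2. Acot7 lay closer to the bulk: 677 probe sets were at least as high on U74Av2, and 794 on 430A. At the low end, 121 and 188 probe sets on 430A were at least as low as the 2 Acaa2 probe sets.

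**Figure D2:**
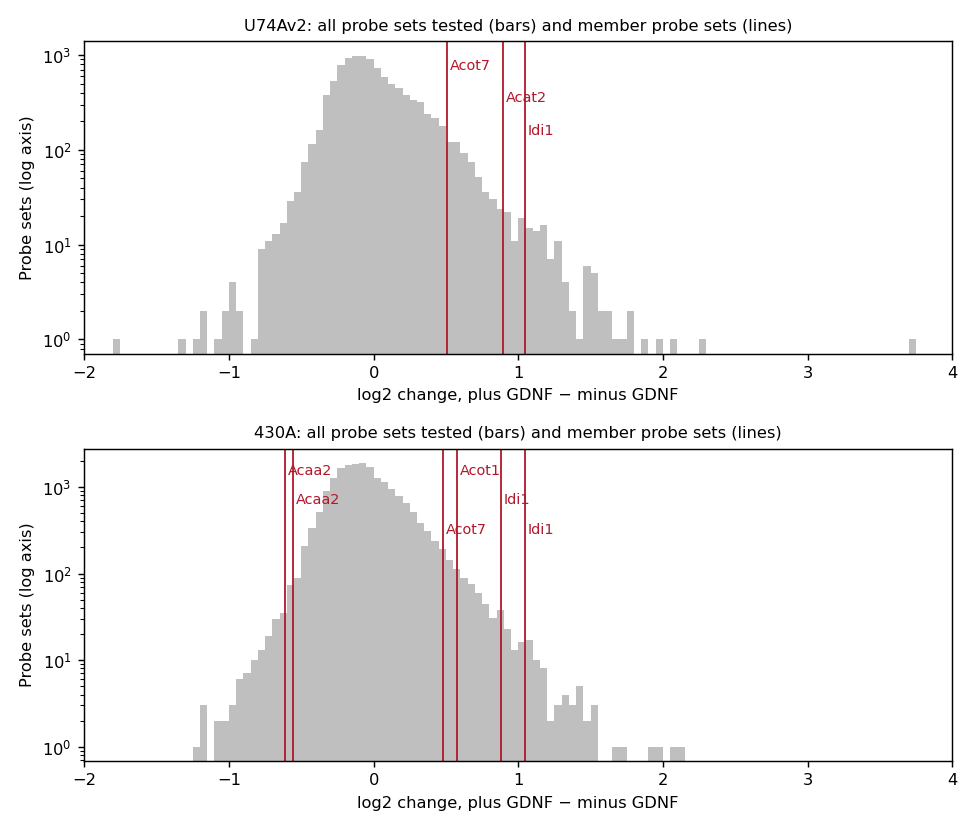
Distribution of the log2 change (plus GDNF − minus GDNF, horizontal axis) over all probe sets tested on U74Av2 (10588, top) and 430A (19521, bottom), with the number of probe sets on a log axis. Lines mark the member probe sets: Idi1, Acat2, Acot1 and Acot7 lie in the right-hand tail and Acaa2 in the left-hand one.

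The 4 genes that were higher together are shown with the 250 bases before a transcript start given by RefSeq on GRCm38.p6, to let these windows be compared. For Idi1, Acat2 and Acot1 the window ends at the edge of the annotated gene. The Acot7 window lies inside the annotated gene, before an internal start, and is not the stretch ahead of its outermost start. These windows were searched on both strands for 6 short motifs, and capitals mark the matches. The windows are chr13:8885356-8885605 (plus strand) for Idi1, chr17:12960726-12960975 (minus strand) for Acat2, chr12:84009252-84009501 (plus strand) for Acot1 and chr4:152185358-152185607 (plus strand) for Acot7.
Idi1: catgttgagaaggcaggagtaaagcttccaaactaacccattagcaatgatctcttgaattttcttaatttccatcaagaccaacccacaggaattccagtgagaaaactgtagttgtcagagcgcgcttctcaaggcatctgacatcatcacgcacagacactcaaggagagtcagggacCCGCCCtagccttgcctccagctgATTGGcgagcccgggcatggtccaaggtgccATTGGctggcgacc
Acat2: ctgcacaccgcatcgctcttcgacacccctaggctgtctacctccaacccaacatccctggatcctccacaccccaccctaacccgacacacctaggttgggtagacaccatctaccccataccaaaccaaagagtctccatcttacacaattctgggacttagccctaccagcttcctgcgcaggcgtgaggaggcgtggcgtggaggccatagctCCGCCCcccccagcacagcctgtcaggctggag
Acot1: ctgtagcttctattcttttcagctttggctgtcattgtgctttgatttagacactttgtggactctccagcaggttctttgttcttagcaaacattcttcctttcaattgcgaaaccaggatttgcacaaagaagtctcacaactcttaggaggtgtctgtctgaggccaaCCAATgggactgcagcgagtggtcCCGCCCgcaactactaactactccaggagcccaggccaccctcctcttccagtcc
Acot7: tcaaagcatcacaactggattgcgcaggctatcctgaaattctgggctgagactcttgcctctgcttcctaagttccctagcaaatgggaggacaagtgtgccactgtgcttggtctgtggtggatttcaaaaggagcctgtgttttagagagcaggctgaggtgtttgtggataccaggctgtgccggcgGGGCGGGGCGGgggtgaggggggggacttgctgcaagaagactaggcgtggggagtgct

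Each of the 4 windows held a GC box (GGGCGG, the core read by Sp1 factors), as did 32.7% of all 32851 RefSeq windows of this length. It began 69 bases before the gene for Idi1, 33 for Acat2 and 55 for Acot1, in each case on the opposite strand. Acot7 had 2 on its own strand, 59 and 54 bases before the internal start, that overlap by 1 base. The CCAAT box, the core read by the factor NF-Y, was found in the Idi1 window, with 2 matches on the opposite strand that start 45 and 14 bases before the gene. Acot1 had 1 CCAAT match, which starts 79 bases before the gene, while Acat2 and Acot7 had none, and 33.8% of all windows held it. A sterol response element, searched as TCACNCCAC and read by the SREBP factors that control sterol synthesis, was in none of the 4 and in 1.05% of all windows. The E-box CACGTG (6.02% of all windows), the nuclear receptor half-site AGGTCA (14%) and the ETS core CCGGAAG (6.91%) had no match either. A match is a run of letters and not a binding site, and the missing ones say only that these letters are not in these windows. The Idi1 window was 51.2% G and C and the Acat2 window 60.0%, beside a median of 52.4% over all windows.

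Idi1 was named by 1 probe set on U74Av2 and by 2 on 430A, more listed probe sets than for any other of the 5 genes. On U74Av2 its intensity was 1527, 1098 and 1020 on the plus GDNF arrays, against 769 and 437 on the minus GDNF arrays. The groups did not overlap, and the lowest plus GDNF array was 1.33 times the highest minus GDNF array. The means were 1215 ± 273 (SD, n = 3) with GDNF, against 603 ± 235 (SD, n = 2) without, a ratio of 2.01 and a log2 change of 1.04 ± 0.30 (SE).

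On 430A, probe set 1423804_a_at read 378, 342 and 363 with GDNF, against 195 and 156 without. The plus GDNF arrays lay close together. The minus GDNF arrays differed by 1.25 times, and the lower of them was just above the 430A intensity floor of 143. The lowest plus GDNF array was 1.75 times the highest minus GDNF array, the widest gap of the 7 higher probe sets. Its log2 change was 1.05 ± 0.13. The plus GDNF mean was 361 ± 17.9 (SD, n = 3), against a minus GDNF mean of 176 ± 27.8 (SD, n = 2). Probe set 1451122_at read 1326, 1085 and 921 with GDNF, against 746 and 478 without, a log2 change of 0.88 ± 0.24. Both probe sets were designed from the same cDNA record and gave ratios of 2.06 and 1.82. The authors' deposited table for 430A gives folds of 2.04 and 1.82 for them, with lower bounds of 1.67 and 1.26.

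Arrays of 1 group differed in Idi1, in a like order on both array types. By 96269_at and 1451122_at, plus array 1 was the highest and plus array 3 the lowest, and by all 3 probe sets minus array 1 exceeded minus array 2, by 1.76 times on U74Av2 and by 1.25 and 1.56 times on 430A. Without minus array 2, the log2 change of Idi1 was 0.64 on U74Av2, and 0.89 and 0.56 for 1423804_a_at and 1451122_at on 430A. Without minus array 1 it was 1.45, 1.21 and 1.20. The size of the Idi1 difference thus turned on which minus GDNF array was kept. In the authors' deposited table for U74Av2 Idi1 has a fold of 1.98 with bounds of 1.2 and 4.36, so its lower bound stood at the limit of 1.2 that the study's filter used.

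Signs of RNA quality also differed between the arrays. For the Gapdh control probe sets, the 3' signal over the 5' signal was 1.22, 1.06 and 1.46 on plus arrays 1, 2 and 3 of U74Av2, against 1.10 and 1.60 on minus arrays 1 and 2. On 430A it was 1.19, 1.12 and 1.52 with GDNF, against 1.09 and 1.74 without. Plus array 3 and minus array 2 thus had the highest ratio of their group on both array types, and minus array 2 had the lowest Idi1. Among the plus arrays the orders differed: array 2 had the lowest ratio, but array 1 had the highest Idi1 by all 3 probe sets. The part of RNA quality in the Idi1 spread was not tested. Among the arrays with low ratios, plus 1 and 2 against minus 1, the log2 difference of Idi1 was 0.75 on U74Av2 and 0.88 and 0.69 on 430A. Between the arrays with high ratios, plus 3 against minus 2, it was 1.22 on U74Av2 and 1.22 and 0.95 on 430A. This split was chosen after seeing the data, the second set is 1 array against 1, and since the groups do not overlap the sign of these values was fixed beforehand.

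**Figure D3:**
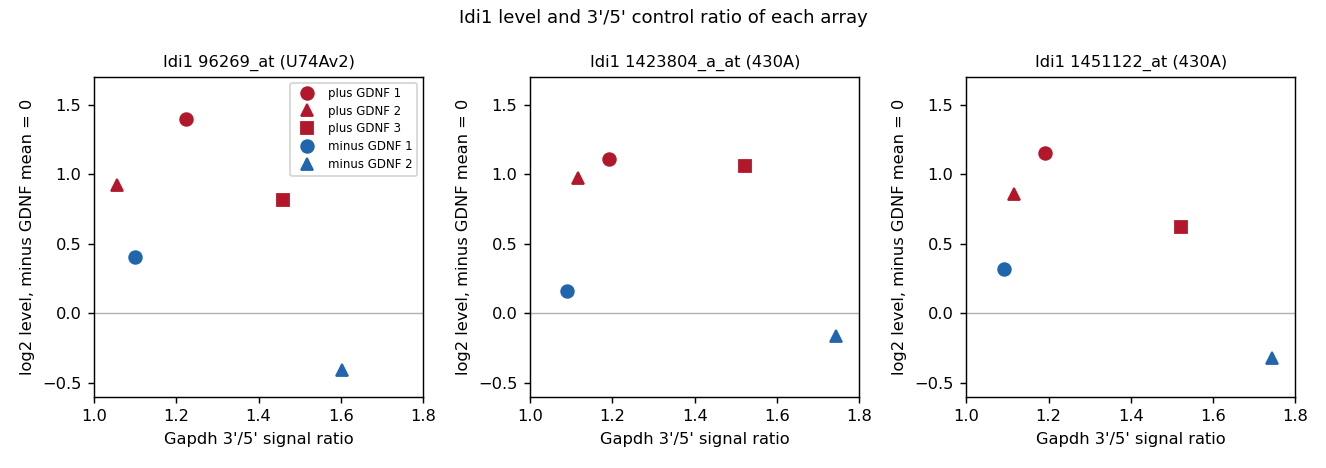
Idi1 level of each array (log2, with the mean of the minus GDNF arrays set to 0) against the array's Gapdh 3'/5' signal ratio, in 1 panel per probe set. Plus GDNF arrays are red and minus GDNF arrays blue, with circle, triangle and square for arrays 1, 2 and 3. The red points lie above the blue ones in all 3 panels, and minus array 2, with ratios of 1.60 and 1.74, is the lowest.

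Acat2 was named on U74Av2 alone, by 1 probe set. Its intensity was 607, 651 and 681 on the plus GDNF arrays, against 415 and 290 on the minus GDNF arrays. The plus GDNF arrays lay close together, and each was at least 1.46 times the highest minus GDNF array. The means were 646 ± 37.2 (SD, n = 3) with GDNF, against 353 ± 88.5 (SD, n = 2) without, a ratio of 1.83 and a log2 change of 0.89 ± 0.19 (SE). As for Idi1, minus array 2 was the lower of its group, by 1.43 times, but plus array 3 was here the highest of its own. The log2 difference was 0.60 for plus 1 and 2 against minus 1, and 1.23 for plus 3 against minus 2. In RefSeq the nearest protein-coding gene is Acat3, of the same thiolase family, and whether the probe set also reads Acat3 RNA was not tested.

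Acot7, which acts on long-chain acyl-CoA and is known for its high level in brain, was named on both array types. On 430A its intensity was 531, 525 and 517 with GDNF, against 382 and 372 without. Acot7 was the most even of the members there, with means of 524 ± 7.21 (SD, n = 3) with GDNF and 377 ± 7.36 (SD, n = 2) in buds without it. These means differed by 148, but SDs of so few arrays are imprecise. On U74Av2 Acot7 read 550, 539 and 491 with GDNF, against 344 and 397 without, again with no overlap. The SDs there were larger, 31.2 with GDNF and 37.4 without. The log2 changes were 0.48 ± 0.09 (SE) on 430A and 0.51 ± 0.15 on U74Av2, ratios of 1.39 and 1.42. Leaving out any 1 array kept the 430A value between 0.46 and 0.50. The change was thus small and close in size on both array types, though the difference between the types was not tested. Plus 1 and 2 against minus 1 gave 0.47 on 430A and 0.66 on U74Av2, and plus 3 against minus 2 gave 0.48 and 0.31.

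Acot1, an inducible thioesterase of the liver that PPAR-alpha controls, was named on 430A alone. Its probe set read 353, 368 and 459 on the plus GDNF arrays, against 243 and 284 on the minus GDNF arrays. The groups did not overlap, and the spread came mainly from plus array 3, the highest. The means were 393 ± 57.4 (SD, n = 3) with GDNF, against 263 ± 29.1 (SD, n = 2) without, a ratio of 1.49 and a log2 change of 0.57 ± 0.15 (SE). In the authors' deposited table for 430A its lower bound is 1.22, just inside the limit of 1.2. That table gives the probe set a second, predicted gene that the RefSeq table does not hold. The nearest protein-coding genes, Acot2 and Acot4, belong to the same family, and whether the probe set also reads their RNA was not tested.

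Acaa2 was the 1 gene of the 5 that was lower with GDNF, by both of its 430A probe sets. Probe set 1428145_at read 903, 857 and 837 on the plus GDNF arrays, against 1229 and 1322 on the minus GDNF arrays. The lowest minus GDNF array was 1.36 times the highest plus GDNF array. Its mean was 865 ± 33.8 (SD, n = 3) with GDNF, against 1276 ± 65.4 (SD, n = 2) without it, and its log2 change was -0.56 ± 0.10 (SE). Probe set 1428146_s_at read 659, 650 and 775 with GDNF, against 949 and 1178 without, a log2 change of -0.61 ± 0.14. The 2 probe sets were near each other in size. They were designed from the same cDNA record, and both were listed as falls, so their shared direction is no separate support. In the authors' deposited table for 430A their folds are -1.47 and -1.54, which stand at ranks 79 and 50 of the 151 falls.

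The named markers of cells around the bud that dissection may leave on it had lower means with GDNF, as did Acaa2. Markers were named only from the authors' tables of changed genes, so this direction says nothing about the unnamed ones. On 430A, 3 of 12 listed stromal genes were named (Tcf21, Vim and Postn), and their summed intensity was 1464 to 2018 with GDNF, against 2796 to 2798 without. For the 2 of 11 listed genes of the nephrogenic mesenchyme that were named, Cited1 and Cdh11, the sum was 710 to 852 with GDNF, against 1122 to 1130 without. None of these markers was at 0 on any array, but that does not measure how much of these cells was present. No gene of the endothelium list (7 genes) or of the blood and macrophage list (10 genes) was named. Of 18 listed bud genes, Ret, Wnt11, Calb1, Lhx1, Krt8 and Cdh16 were named on 430A, with a summed intensity of 15229 to 15568 with GDNF, against 15740 to 16257 without. These 6 went both ways: Ret, Wnt11, Calb1 and Lhx1 were higher with GDNF, at ratios of 2.91, 2.09, 1.64 and 1.55, and the bright Cdh16 and Krt8 were lower, at 0.541 and 0.699. On U74Av2 the named ones, Ret, Wnt11 and Calb1, summed to 4339 to 5568 with GDNF, against 1711 to 2223 without, higher with GDNF like the U74Av2 members. The 1 stromal gene named there, Acta2, read 399 to 513 with GDNF, against 507 to 705 without, so its groups overlapped. The part of the cell makeup in the members' values was not tested. Six2, Foxd1 and the remaining listed markers are unnamed in both tables and were not analysed here.

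Within the groups the 5 genes did not follow one pattern. Minus array 2 was below minus array 1 for Idi1, for Acat2 and, slightly, for Acot7 on 430A, but above it for Acot1, for Acot7 on U74Av2 and for both Acaa2 probe sets. Over the 5 arrays of 430A, 1423804_a_at of Idi1 had a Pearson r of 0.93 with the other Idi1 probe set, 0.99 with Acot7 and 0.82 with Acot1, and -0.98 and -0.95 with the Acaa2 probe sets. On U74Av2, Idi1 had an r of 0.90 with Acat2 and 0.75 with Acot7. These 5 points share the GDNF difference by which the genes were chosen. With each group's mean removed, the 2 Idi1 probe sets had an r of 0.82, Idi1 and Acat2 0.58, and the 2 Acaa2 probe sets 0.17. Acot1, which was highest on plus array 3, had an r of -0.88 with Idi1 1451122_at and -0.93 with Acot7 on that basis. Idi1 1451122_at and Acot7 had an r of 0.99 on 430A, and Acat2 and Acot7 one of -0.90 on U74Av2. Each of these values rests on 5 arrays with 2 group means removed, so none is precise and no grouping of the genes is read from them.

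The rest of the pathways was looked at through 8 lists with 172 genes, of which 11 genes were named in the authors' tables, these 5 and 6 others. All 6 others were higher with GDNF, and limma's adjusted p under 0.05 was met by 0 of them on either type. Most listed probe sets of any kind were higher too, 273 of 312 on U74Av2 and 542 of 693 on 430A. Since the names come only from the authors' tables of changed genes, this direction says nothing about the other 161 listed genes. Of the 23 genes of sterol and isoprenoid synthesis, Idi1, Acat2 and Lbr were named. Lbr, a protein of the inner nuclear membrane that also reduces a sterol double bond, read 837, 715 and 704 with GDNF, against 428 and 345 without, on U74Av2. Its log2 change was 0.96 ± 0.17 (SE) there and 0.77 ± 0.10 on 430A. On U74Av2 the Lbr value lay between those of Acat2 (0.89) and Idi1 (1.04). On 430A, where Acat2 was not named, it was below both Idi1 probe sets (1.05 and 0.88), a difference that was not tested. Of the 19 genes of SREBP control and sterol uptake none was named. Of the 18 genes of prenylation, dolichol and ubiquinone, Nus1, a subunit of the enzyme that makes the dolichol chain, was named, at log2 0.42 ± 0.10 on 430A.

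Genes of fatty acid synthesis and desaturation were named on both types. Scd1, which puts the first double bond into saturated acyl-CoA, read 275, 262 and 168 with GDNF, against 101 and 65.8 without, on U74Av2. These values lay low on the array, and the lowest was just above the intensity floor of 65.0, so its log2 change of 1.50 ± 0.29 (SE) is imprecise. Fads2, the delta-6 desaturase of polyunsaturated fatty acids, read 830, 967 and 714 with GDNF, against 546 and 376 without, on 430A (log2 0.88 ± 0.20). Hsd17b12, an enzyme of fatty acid elongation, stood at log2 0.74 ± 0.17 on U74Av2 and 0.54 ± 0.12 on 430A. These 3 were the named genes of 26 listed for fatty acid synthesis and desaturation.

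Fabp5, a carrier of fatty acids in the cytosol, was the 1 named gene of 24 acyl-CoA synthetases and binding proteins. On 430A its probe set 1416021_a_at read 1193, 1053 and 1036 with GDNF, against 488 and 385 without, log2 1.33 ± 0.14. A second 430A probe set stood at 1.42 ± 0.24 and the U74Av2 one at 0.80 ± 0.20. The change of Fabp5 thus exceeded that of Idi1 on 430A and was below it on U74Av2, and neither difference was tested. Among 16 thioesterases only Acot1 and Acot7 were named, and of 14 thiolases and ketone body enzymes only Acat2 and Acaa2. Acaa2 was also the 1 named gene of 36 listed for fatty acid oxidation.

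**Figure D4:**
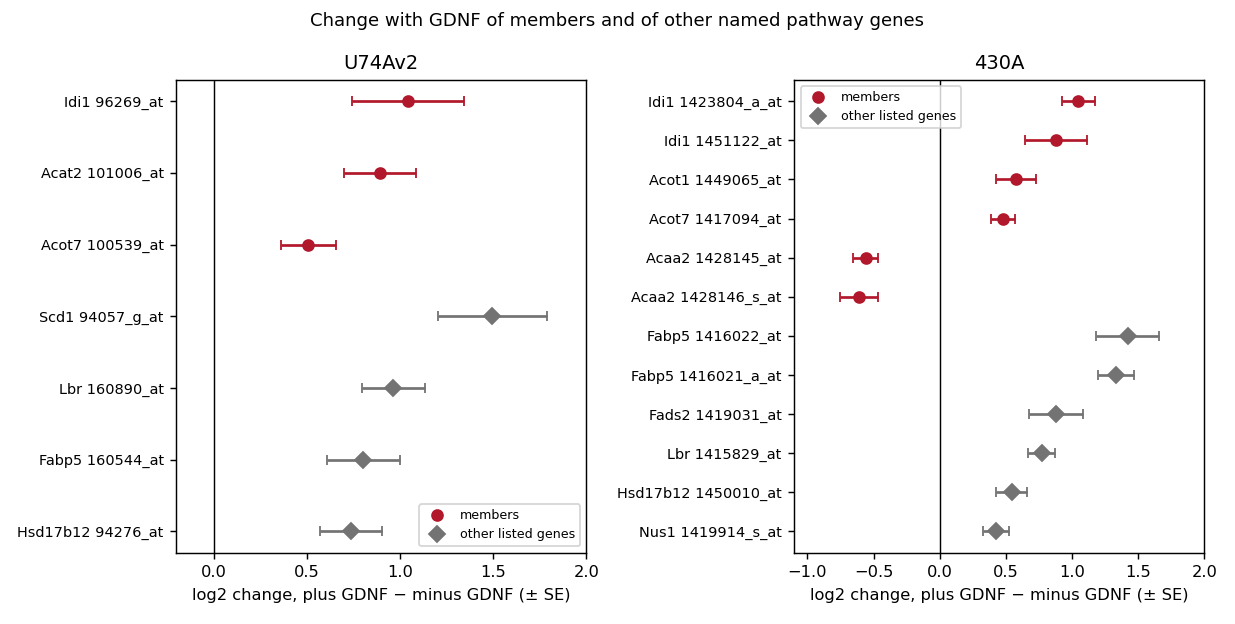
Change with GDNF (log2, plus GDNF − minus GDNF, with limma's SE) of the member probe sets (red circles) and of the other pathway genes named in the authors' tables (grey diamonds), on U74Av2 (left) and 430A (right). Acaa2 is the 1 gene left of 0, at -0.56 and -0.61.

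Genes with the most similar pattern were sought among those named in the authors' tables. Over the 10 arrays, with each array type centred on its own mean, Idi1 had its highest Pearson r with Fen1 (0.989), Psat1 (0.977) and Nasp (0.976), among 183 genes whose median r with it was 0.891. Acot7 was most like Nop56 (0.986), Ctnnd2 (0.980) and Chek1 (0.975), with a median of 0.896. Over the 5 arrays of 430A, Acot1 was most like Ssb (0.998), Nup85 (0.991) and Dck (0.987) among 539 genes, whose median r with it was 0.745. Acaa2 was most like Nrep (0.996), Abi3bp (0.992) and Rab15 (0.991), while its median r with the 539 genes was -0.923. All of these genes were selected for change between the same arrays, so high values are common, though not equally for each member. On 430A, 377 of 539 genes had an r over 0.9 with Acot7, 234 with Idi1, 78 with Acaa2 and 76 with Acot1.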

How the data were processed

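Pooled total RNA of ureteric buds was measured on 10 arrays, U74Av2 or 430A, and groups came from the titles. The authors deposited 1 intensity per probe set and array, with 12488 on U74Av2 and 22690 on 430A; its normalization is not given in the sources used here. Per the series text, the authors compared groups in dChip 1.3. The authors' deposited tables give a signed fold (a score, with falls as minus the inverse ratio) for probe sets whose lower 90% bound exceeded 1.2 and whose means differed by over 100.

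The 5 genes, the lists and the motifs were chosen with earlier results of these data known. All probe sets that the tables name for the 5 genes were described, and every list gene with exactly 1 current protein-coding gene by Entrez identifier (RefSeq GRCm38.p6): 292 of 312 probe sets on U74Av2 and 661 of 693 on 430A. A gene with several probe sets entered list counts, sums and likeness by the brightest.

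Intensities were floored at the 20th percentile of each table (65.0 and 143) and log2 was taken. Control probe sets (66 and 64) were dropped, and so were probe sets with all 5 arrays at the floor (1834 and 3105). U74Av2 and 430A were fitted apart from each other, by lmFit and two-sided eBayes of limma 3.58.1 in R 4.3.3, a fit tested first on simulated data. SE values are limma's moderated ones. Whether arrays of the groups came from separate cultures is not stated, so limma's p-values measure the spread between arrays. Array medians ran from 211 to 248 on U74Av2 and from 281 to 321 on 430A. Alternatives were quantile normalization, centred medians, other floors, a replicate block and leaving out each array, and for counts over the array a filter on dim probe sets, a trended robust variance and an adjusted p of 0.1. Promoter letters are from RefSeq. Levels of different probe sets were not compared.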

Additional observations from a re-analysis of the deposited data

How the results depend on the processing

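Of 108 recomputed values of the 9 member probe sets, 93 stayed within 1 SD of the arrays around the reported value. The lower floor tried changed no member value, and the floor at the 40th percentile changed only Idi1 1423804_a_at. The replicate block gave the same values as leaving out plus array 3, so those values were counted again. The SD was each probe set's own, from 0.023 for Acot7 on 430A to 0.418 for Idi1 on U74Av2. Values of uneven probe sets could hardly leave it, so the count of 93 is no evidence of stability. Since the groups of the 9 probe sets do not overlap, a left-out array, an array split or a floor could not turn their sign. The constant sign is thus no evidence of stability either. Leaving out 1 array gave Acat2 a log2 change of 0.64 to 1.15, Idi1 1423804_a_at 0.89 to 1.21, Idi1 on U74Av2 0.64 to 1.45, Idi1 1451122_at 0.56 to 1.20, Acot1 0.46 to 0.69 and the Acaa2 probe sets -0.61 to -0.51 and -0.77 to -0.46. With the floor at the 40th percentile both minus GDNF arrays of Idi1 1423804_a_at lay below it, so its log2 change became at least 0.61. Acot7 on 430A stood at 0.51 with quantile normalization and 0.53 with centred medians. Among arrays of like control ratio, a split picked with the data in view, plus 1 and 2 against minus 1 gave 0.60 for Acat2, 0.66 for Acot7 on U74Av2, 0.88 for Idi1 1423804_a_at and -0.48 for Acaa2 1428145_at. Plus 3 against minus 2 gave 1.23, 0.31, 1.22 and -0.66 for these.

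Over the whole of 430A, limma called 0 of 19521 probe sets as reported and 102 (0.523%) with centred medians. Of the 6 member probe sets, 1 was among these 102, Idi1 1423804_a_at. It called 30 (0.142%) with the floor at the 10th percentile and 48 (0.246%) with a trended robust variance. Among the 9760 probe sets above the median level it called 156 (1.6%), but only 4 member probe sets, without Idi1 1423804_a_at, were in that set. At an adjusted p under 0.1 it called 198 of 19521, again with Idi1 1423804_a_at as the 1 member of 6. No other member was called under these. On U74Av2 it called 1 as reported, 2 with centred medians, 0 with the floor at the 40th percentile, 4 above the median level, 3 with the trended variance and 5 at an adjusted p under 0.1. Leaving out any 1 array gave 0 to 0 on both types, with 529 to 2100 probe sets on U74Av2 and 1371 to 6738 on 430A at an unadjusted p under 0.05. Same-numbered plus and minus arrays deviated from their group means with correlations of 0.16 and -0.70 on U74Av2 and -0.02 and -0.62 on 430A. The deviations of 2 minus GDNF arrays from their mean mirror each other, so these values cannot settle pairing. The numbers were not taken to pair the arrays. With the replicate block limma called 1 and 0 probe sets, and Idi1 on U74Av2 had a log2 change of 1.16.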
